A study of Mus musculus with 32 samples.

Results

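The 8 genes of protein folding studied here, Cdc37, Hspe1, Hspb8, Cct6a, Hspa4, Tcp1, Dnajb1 and Cct2, were measured in the prefrontal cortex of mice in withdrawal from ethanol. Each was found by its gene title among 4696 cDNA clone spots, every spot so titled was kept, and each gene had 1 spot, so the group holds 8 of the 4696 clones. Each of 32 spotted arrays took a single target, cDNA labelled with 33P. The mice were drug-naive adults of the WSP line (Withdrawal Seizure-Prone) or of the WSR line (Withdrawal Seizure-Resistant), which were bred from a mixed HS/Ibg stock for severe or mild withdrawal. The breeding was done in duplicate, and the resulting populations 1 and 2 of a line, its selection replicates, were treated as 1 group by the study.

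The 8 groups were female WSP air, female WSP EtOH, female WSR air, female WSR EtOH, male WSP air, male WSP EtOH, male WSR air and male WSR EtOH, with 4 arrays each, 2 from each selection replicate. EtOH mice had ethanol injected at 1.5 g/kg, with a somewhat higher dose for population 2 of WSP, and then breathed ethanol vapour for 72 h. Air mice stayed in air chambers without the ethanol injection. All 8 groups received pyrazole, an inhibitor of alcohol dehydrogenase, at 68.1 mg/kg, so the air controls are not free of drug. Tissue was taken 8 h after the chambers, and each array holds RNA pooled from 2 mice, so no array shows a single animal. In an array's name, such as Female WSP Air 1-2, the group is followed by the number of the population and that of the pool.

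Chaperones bind unfolded or partly folded proteins and help them reach or keep a working shape. The Hsp70 machine works with J-domain proteins, which deliver clients and start the ATP cycle, and with nucleotide exchange factors, which release them. Chaperonins are closed chambers: in the cytosol the CCT (TRiC) ring, built from different subunits, folds actin and tubulin, and in mitochondria the Hsp60 ring is capped by Hsp10. Many heat shock genes, though not all chaperones, are induced by heat shock factor 1, which binds inverted repeats of the letters GAA, the heat shock element.

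Such repeats were searched in the promoters of the 8 genes, because the heat shock element is what the inducible members are known for. RefSeq (GRCm38.p6) gave windows from 250 bases before to 50 bases after a start for all 8 genes, 10 windows in all. A pair of units, GAANNTTC or TTCNNGAA, both of which read the same on either strand, was found in 5 windows, those of Cdc37, Hspe1, Hspb8, Cct6a and 1 of the 2 of Cct2, and in 15.1% of all 32851 promoter windows. A run of 3 alternating units, GAA and TTC in turn with 2 bases between them, on either strand, was found in 1 of the 10, that of Hspe1, and in 0.603% of all windows. The longer form contains the shorter ones. The 3 stretches whose match lies before the start are shown 5′ to 3′ on the gene's strand, with the matches in capitals, to let the continuous repeat of Hspe1 be seen beside the single pairs of Cdc37 and Cct2.
Hspe1 (chr1:55087999-55088136, plus strand): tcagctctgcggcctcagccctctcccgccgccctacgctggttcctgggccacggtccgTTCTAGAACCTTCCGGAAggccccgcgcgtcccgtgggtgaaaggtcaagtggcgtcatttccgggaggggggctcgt
Cdc37 (chr9:21150037-21150164, minus strand): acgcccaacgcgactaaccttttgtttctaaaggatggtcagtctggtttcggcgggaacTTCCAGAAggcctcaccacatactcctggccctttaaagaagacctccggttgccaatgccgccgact
Cct2 (chr10:117063376-117063477, minus strand): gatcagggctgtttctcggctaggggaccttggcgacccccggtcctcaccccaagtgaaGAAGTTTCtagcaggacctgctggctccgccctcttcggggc
In Hspe1, TTCTAGAA, GAACCTTC and TTCCGGAA run into each other between 89 and 72 bases before the start. Hspe1 lies head to head with Hspd1, the gene of its partner Hsp60, and the annotated genes overlap by 96 bases. No match was found in the windows of Hspa4, Tcp1 or Dnajb1, which says only that these letters are not in those windows.

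Signal decided how much each spot could tell. Values are spot intensities corrected for array background, quantile normalised and given on the log2 scale, where the correction sets a floor at 5.64, and 84.6% of all clones had a mean within 1 unit of that floor. Differences of dim spots are therefore understated. Array background ranged from 9.83 to 45.0 intensity units with a median of 19.6, and 51.1% to 88.7% of clones lay above it on an array. Female air arrays had a background of 15.8 ± 5.56 and male air arrays of 26.0 ± 5.86 (SD, n = 8 each). The level of a spot depends on its clone, so the order of the members' levels is not an order of transcript amounts, and a member is set against the spots around it only as a measure of local signal.

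Of the 8 genes, 3 were above background on all 32 arrays. Dnajb1, the J-domain protein Hsp40 that hands clients to Hsp70, had a median raw intensity of 620 units, and Hspa4, an Hsp110-type nucleotide exchange factor of Hsp70, had one of 328. Hspe1, the mitochondrial Hsp10 that caps the Hsp60 chamber, had a median of 149. The other 5 had median raw intensities of 20.0 to 23.9, near the background itself. Cdc37, which brings protein kinases to Hsp90, was above background on 24 arrays, the CCT subunit Tcp1 on 23, the small heat shock protein Hspb8 on 22, the CCT subunit Cct6a on 17 and the CCT subunit Cct2 on 14.

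The tissue was checked against markers of cortical cells. The neuronal markers Ina, Syn1 and Thy1 were above background on 32, 28 and 26 arrays, and glutamine synthetase (Glul) of astrocytes on 32. In a bulk sample, fewer cells of a type and less RNA per cell cannot be told apart.

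The study asked which transcripts differ with ethanol within each sex and line. None of the 8 genes passed in that comparison or in any of the other comparisons made with the main processing. Across the 16 EtOH and 16 air arrays, the average difference ran from -0.03 for Cdc37 and Hspa4 to 0.23 for Cct6a (limma, adjusted over all clones, smallest adjusted p among the members = 0.687, that of Tcp1). The EtOH mean was the larger for 5 of 8 members, with a median difference of 0.09, while it was the larger for 51.7% of the 4696 clones, with a median of 0.003. None of the members had an unadjusted p under 0.05 here.

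**Figure D1:**
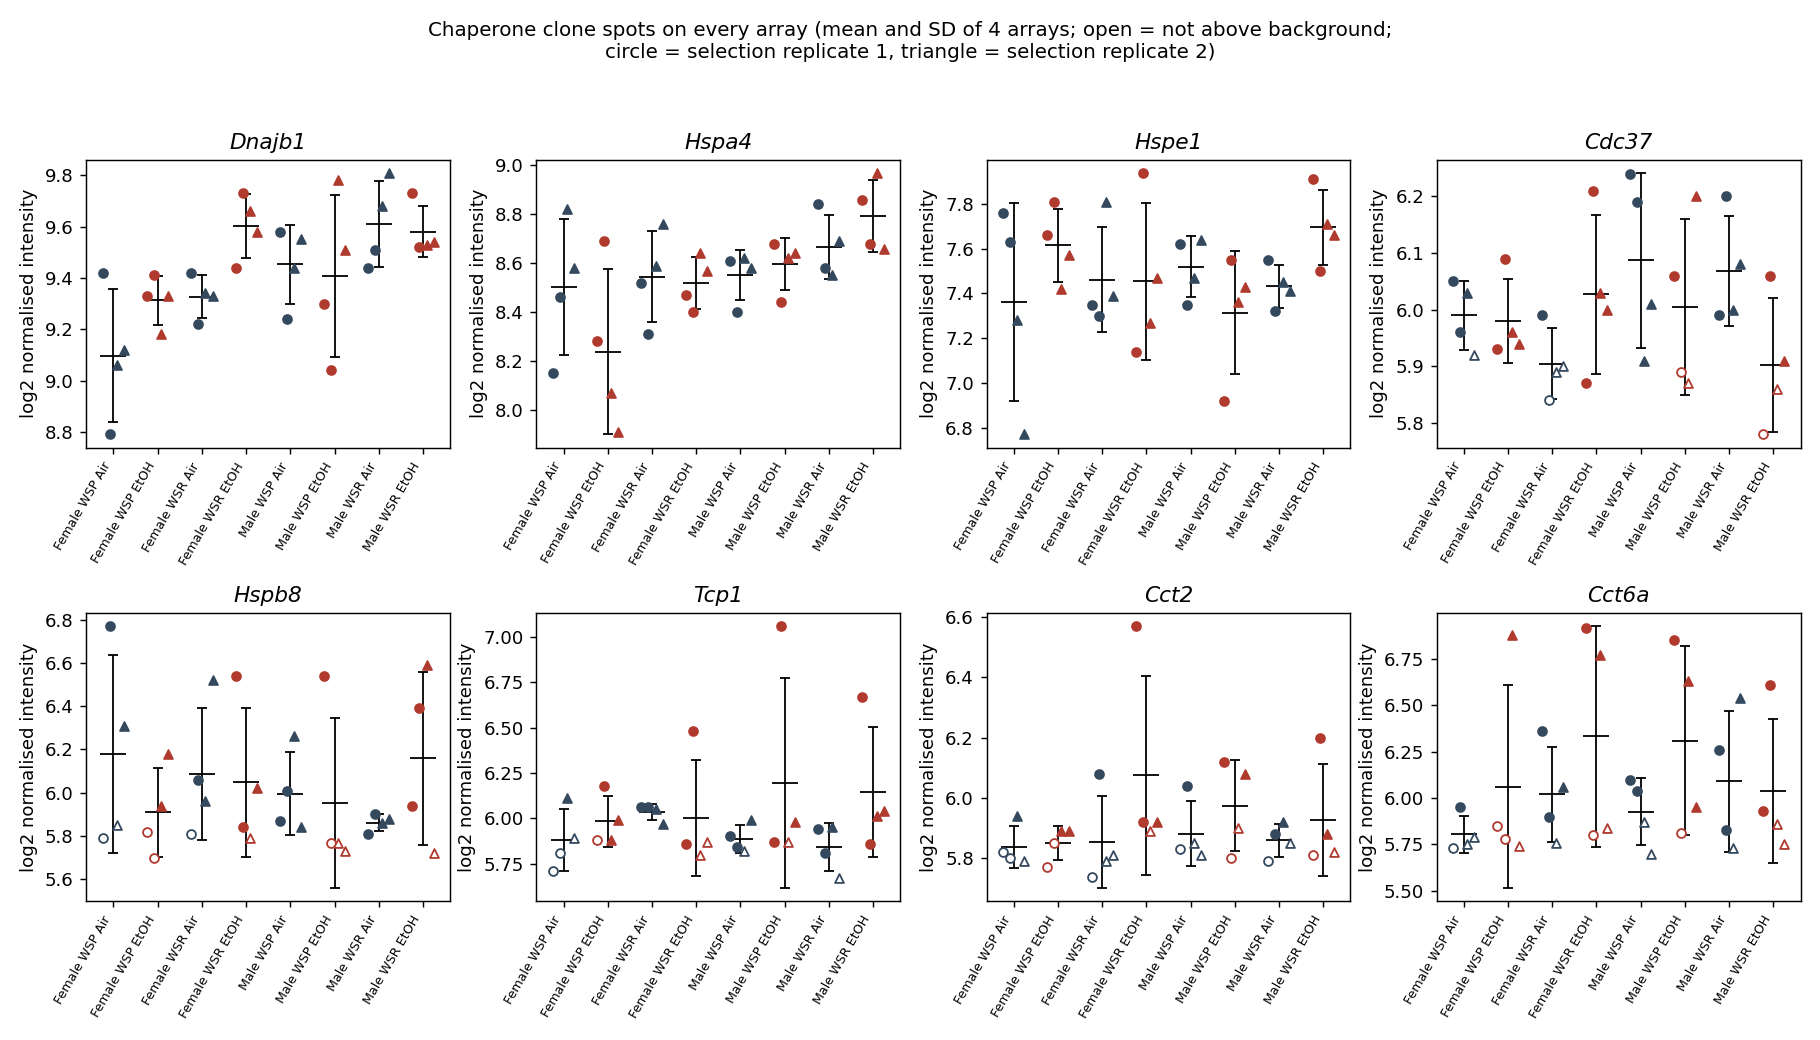
Log2 normalised intensity (y axis) of the 8 chaperone spots on each of the 32 arrays, by group of sex, line and treatment (x axis); bars give the mean and SD of 4 arrays, blue is air, red is EtOH, and open symbols are not above background. Dnajb1 shows the female air arrays low, while in Cct6a, Tcp1 and Hspb8 single arrays stand far above the rest of their group.

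Dnajb1 carried the largest difference relative to its error among the members, between the sexes and not with ethanol. In female WSP air the 4 arrays read 9.42, 8.79, 9.06 and 9.12 in the order 1-1, 1-2, 2-1 and 2-2. In female WSR air they read 9.42, 9.22, 9.34 and 9.33. The value of 8.79 is the lowest of all 32 arrays.
In male WSP air the arrays read 9.58, 9.24, 9.44 and 9.55, and in male WSR air 9.44, 9.51, 9.68 and 9.81. The ranges of the sexes, 8.79 to 9.42 and 9.24 to 9.81, overlap. The mean was 9.21 ± 0.21 in females and 9.53 ± 0.17 in males (SD, n = 8 each), a female minus male difference of -0.32 (SE 0.09, 95% interval -0.51 to -0.13). Its unadjusted p was 0.00163 and it did not pass over all clones (limma, adjusted p = 0.153).

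That difference depended on how it was measured. Beside it stand the lower background of female air arrays and their lower share of clones above background, 59.0% ± 5.91 against 72.8% ± 6.75 on male air arrays (SD, n = 8 each). The clones around Dnajb1 on the filter, within 3 columns and rows, had a median of 6.14 ± 0.09 on female and 6.29 ± 0.11 on male air arrays (SD, n = 8 each). With that local median subtracted the difference was -0.16 (limma, adjusted p = 0.768). It was -0.23 within selection replicate 1 and -0.41 within selection replicate 2 (limma, adjusted p = 0.845 and 0.198). On the authors' deposited log2 values it was -0.55 and passed (limma, adjusted p = 0.0170), and with robust regression it was -0.33 and passed (adjusted p = 0.00763). The part of background and of the surrounding spots in the difference was not tested.

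With ethanol, the larger Dnajb1 differences were in females. In female WSR EtOH the arrays read 9.44, 9.73, 9.66 and 9.58, against 9.22 to 9.42 in air, so the EtOH and air arrays did not overlap. That held for 1 of 8 members in female WSR and for 2.49% of all clones. The difference was 0.28 (SE 0.13, 95% interval 0.01 to 0.54, unadjusted p = 0.0422) and did not pass (limma, adjusted p = 1.00).
In female WSP EtOH the arrays read 9.33, 9.41, 9.18 and 9.33, inside the range of the air arrays, with a difference of 0.21 (SE 0.13). In male WSP EtOH they read 9.30, 9.04, 9.78 and 9.51, the widest spread of any Dnajb1 group (SD 0.32), with a difference of -0.05 (SE 0.13). In male WSR EtOH they read 9.73, 9.52, 9.53 and 9.54, with a difference of -0.03 (SE 0.13). The difference between the sexes in the ethanol effect was 0.28 (SE 0.13, unadjusted p = 0.0383), which did not pass (limma, adjusted p = 0.785). No member's EtOH and air arrays separated in the other 3 combinations of sex and line, where the share of all clones that did was 5.47% in female WSP, 2.77% in male WSP and 3.56% in male WSR.

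Between the lines, Dnajb1 was -0.19 in WSP relative to WSR among air arrays (SE 0.09, unadjusted p = 0.0459) and -0.23 among EtOH arrays (SE 0.09, unadjusted p = 0.0175). Neither passed (limma, adjusted p = 0.834 and 0.865). Each line was bred as 2 populations, and these p-values cover the spread between pools, not that between populations. Among EtOH arrays, the higher ethanol dose of population 2 of WSP also cannot be told apart from line. The air difference ran from -0.07 with median scaling to -0.44 on the authors' values (adjusted p = 0.0978), and the EtOH difference from -0.13 within selection replicate 2 to -0.40 on the authors' values. Ordered by mean, the groups of Dnajb1 ran from female WSP air (9.10 ± 0.26) through female WSP EtOH (9.31 ± 0.10), female WSR air (9.33 ± 0.08), male WSP EtOH (9.41 ± 0.32) and male WSP air (9.45 ± 0.15) to male WSR EtOH (9.58 ± 0.10), female WSR EtOH (9.60 ± 0.12) and male WSR air (9.61 ± 0.17), each as mean and SD of n = 4. Every step between neighbours in that order is smaller than the larger of their SDs.

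**Figure D2:**
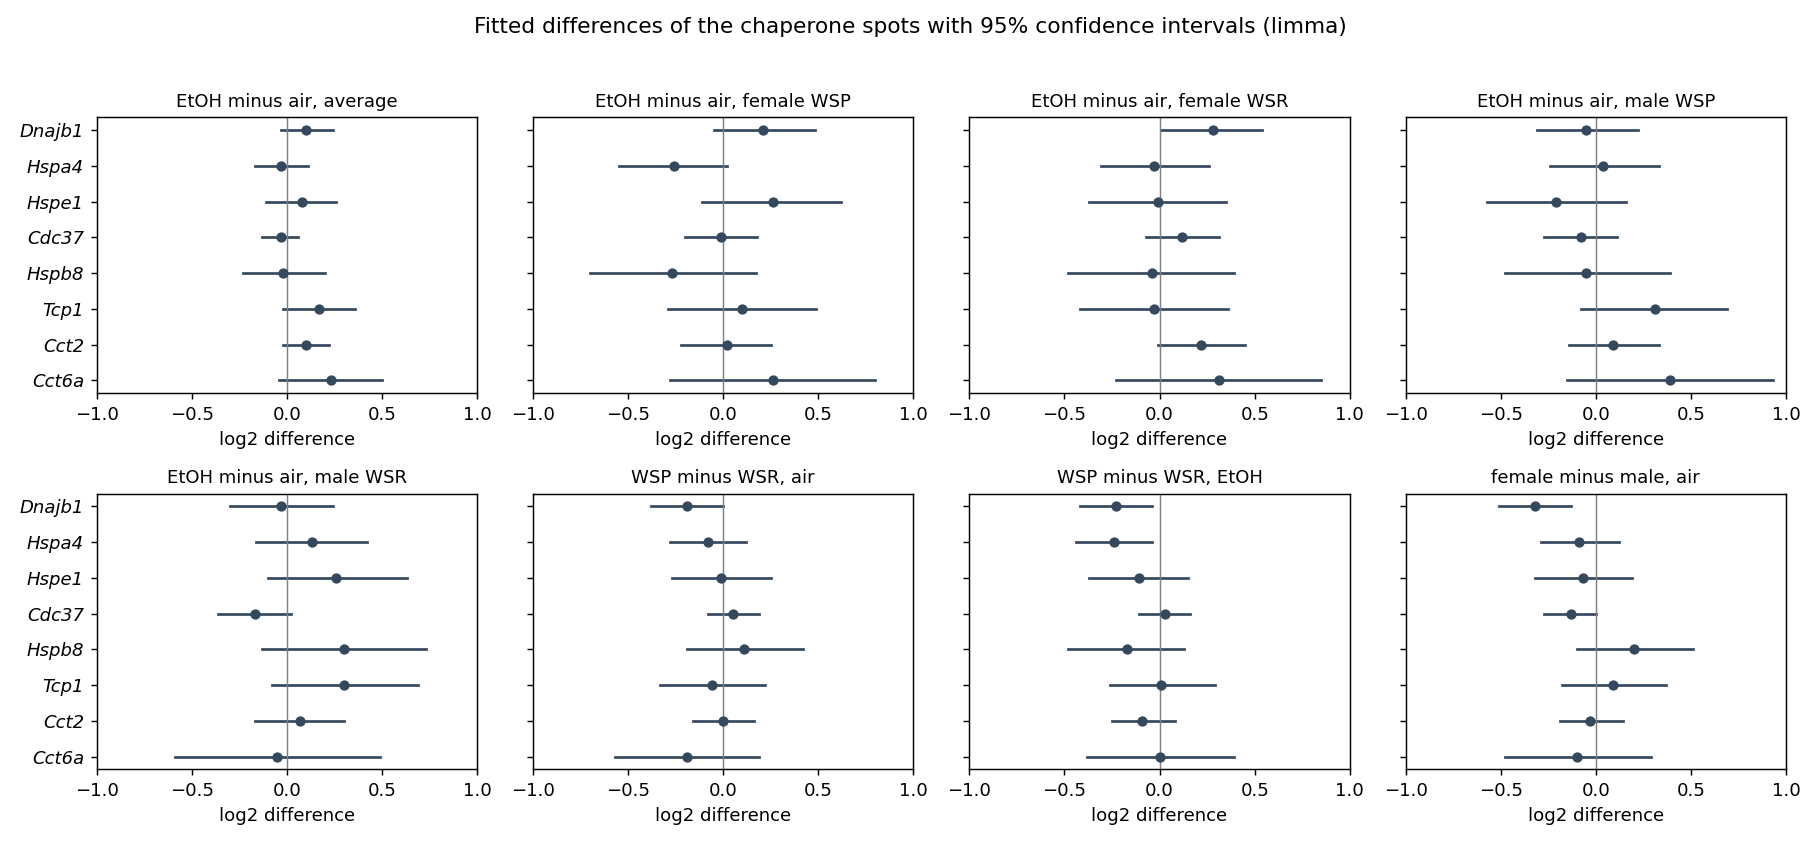
Fitted log2 differences (x axis) with 95% confidence intervals for the 8 members (y axis) in 8 comparisons: EtOH minus air on average and in each sex and line, WSP minus WSR in air and in EtOH, and female minus male in air. Most intervals cross 0. The exceptions for Dnajb1 are female WSR, the line differences in air and in EtOH, and the sex difference. Its upper end in the line difference in air rounds to 0.00. For Hspa4 the exception is the line difference in EtOH. None of these passed after adjustment over all clones.

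For Hspa4 the smallest unadjusted p belonged to the difference between the lines after ethanol. In female WSP EtOH its arrays read 8.28, 8.69, 8.07 and 7.91, and in male WSP EtOH 8.68, 8.44, 8.62 and 8.64. In female WSR EtOH they read 8.47, 8.40, 8.64 and 8.57, and in male WSR EtOH 8.86, 8.68, 8.97 and 8.66. The lowest values belong to female WSP, and the ranges of the lines overlap.
The WSP minus WSR difference among EtOH arrays was -0.24 (SE 0.10, 95% interval -0.44 to -0.04, unadjusted p = 0.0229), and it did not pass (limma, adjusted p = 0.865). It was -0.08 within selection replicate 1 and -0.40 within selection replicate 2 (limma, adjusted p = 0.999 and 0.779). On the authors' deposited log2 values it was -0.64 and passed (limma, adjusted p = 0.0310). All 3 members that those values cover lay lower in WSP there, with Dnajb1 at -0.40 and Hspe1 at -0.47 among EtOH arrays. Of the 2170 clones those values cover, 46 passed among EtOH arrays, 42 of them lower in WSP and 4 higher. The median difference over those 2170 clones was 0.009. Hspa4 was at -0.51 among air arrays too (adjusted p = 0.0879), where the normalised intensities gave -0.08 (SE 0.10). Background had a median of 23.6 on the WSP EtOH and 18.2 on the WSR EtOH arrays (n = 8 each), and its part was not tested. Population 2 of WSP had the higher ethanol dose, so among EtOH arrays of selection replicate 2 line and dose cannot be told apart. Within female WSP, EtOH minus air was -0.26 (SE 0.14, limma adjusted p = 0.476). It was 0.18 within selection replicate 1 and -0.71 within selection replicate 2 (limma, adjusted p = 0.906 and 0.0519). Population and dose cannot be told apart there. Group means of Hspa4 ran from 8.24 ± 0.34 in female WSP EtOH and 8.50 ± 0.28 in female WSP air to 8.67 ± 0.13 in male WSR air and 8.79 ± 0.15 in male WSR EtOH (SD, n = 4 each), with the other 4 groups between 8.52 and 8.60.

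Hspe1, the gene with the continuous heat shock element, had no difference with an unadjusted p under 0.05 in the main processing. On the authors' values all 3 covered members, Hspe1 among them, were under that level in the line difference in EtOH (limma). The normalised values of Hspe1 ran from 6.77 on Female WSP Air 2-2 to 7.94 on Female WSR EtOH 1-2. In female WSP, air arrays read 7.76, 7.63, 7.28 and 6.77 and EtOH arrays 7.66, 7.81, 7.42 and 7.57, a difference of 0.26 (SE 0.18, limma adjusted p = 0.618). The air arrays there had an SD of 0.44, more than the difference, which was 0.06 without Female WSP Air 2-2, 0.03 with loess, 0.04 and 0.47 within selection replicates 1 and 2, and 0.44 with the local median subtracted (unadjusted p = 0.0168, limma adjusted p = 0.449). In female WSR the means were 7.46 in air and 7.45 in EtOH. The difference was -0.21 in male WSP and 0.26 in male WSR (SE 0.18 each, limma adjusted p = 0.844 and 1.00).
Its averaged ethanol difference was 0.08 (SE 0.09, 95% interval -0.11 to 0.26). The group means spanned 7.31 ± 0.27 in male WSP EtOH to 7.70 ± 0.17 in male WSR EtOH (SD, n = 4 each), and the other 6 groups lay between them. Of 16 EtOH arrays, 11 were above the air mean of their own sex and line for Hspe1, as were 11 for Dnajb1 and 9 for Hspa4.

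The largest averaged ethanol differences among the members were those of the CCT subunits Cct6a and Tcp1, and they rested on a few arrays. For Cct6a the difference was 0.23 (SE 0.13, 95% interval -0.04 to 0.50, limma adjusted p = 0.718), for Tcp1 0.17 (SE 0.09, adjusted p = 0.687) and for Cct2 0.10 (SE 0.06, adjusted p = 0.703). Only 8 of 16 EtOH arrays were above the air mean of their sex and line for Cct6a, against 10 for Tcp1 and 12 for Cct2.

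Cct6a was high on 7 arrays, at 6.54 or more, and the next value was 6.36. They were Female WSP EtOH 2-1 (6.88), Female WSR EtOH 1-1 (6.92), Female WSR EtOH 2-1 (6.77), Male WSP EtOH 1-1 (6.85), Male WSP EtOH 2-1 (6.63), Male WSR EtOH 1-2 (6.61) and Male WSR Air 2-2 (6.54). So 6 of the 7 were EtOH arrays and 1 an air array, each beside arrays of its own group near the floor, such as 5.85, 5.78 and 5.74 in female WSP EtOH. The cut at 7 arrays was taken from these same values. Below it, the next values, 6.36, 6.26, 6.10, 6.06 and 6.04, were all from air arrays. By sex and line the differences were 0.26, 0.31, 0.39 and -0.05 in female WSP, female WSR, male WSP and male WSR (SE 0.26 each). Without Female WSP EtOH 2-1 the first was -0.01, without Female WSR EtOH 1-1 the second was 0.12, and without Male WSP EtOH 1-1 the third was 0.21.

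Tcp1 was high on other arrays. Male WSP EtOH 1-2 read 7.06 against 5.87, 5.87 and 5.98 on the other arrays of its group, and Male WSR EtOH 1-1 read 6.67 against 5.86, 6.01 and 6.04. Female WSR EtOH 1-2 read 6.48 against 5.80 to 5.87. The differences of 0.31 in male WSP and 0.30 in male WSR (SE 0.19 each) were 0.02 and 0.13 without the high array, and the averaged one was 0.10 without Male WSP EtOH 1-2. Within selection replicate 2 alone the averaged difference was 0.00, and within selection replicate 1 it was 0.34 (limma, adjusted p = 0.999 and 0.447).

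Cct2 stood out most on Female WSR EtOH 1-1, at 6.57 against 5.89 to 5.92 on the other arrays of that group. The female WSR difference of 0.22 (SE 0.11, limma adjusted p = 1.00) was 0.06 without it, as was the averaged difference. Cct6a also had its highest value on Female WSR EtOH 1-1 (6.92). Both subunits had the highest value of their group on Male WSR EtOH 1-2 (6.61 for Cct6a and 6.20 for Cct2). The same held on Male WSP EtOH 1-1 (6.85 for Cct6a and 6.12 for Cct2). On the other high arrays of Cct6a, Cct2 read 5.85 to 5.90, and the pair had a Spearman correlation of 0.25. Hspb8, not a CCT subunit, read 6.54 on Female WSR EtOH 1-1, 6.39 on Male WSR EtOH 1-2 and 6.54 on Male WSP EtOH 1-1. The high arrays of Tcp1 were others. Over the 32 arrays, the 28 pairs of members had Spearman correlations between -0.46 and 0.36 with a median of -0.01, and 13 were positive. These points share arrays and normalisation.

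Hspb8 and Cdc37 had averaged differences of -0.02 (SE 0.11) and -0.03 (SE 0.05). Hspb8 ranged from 5.70 to 6.77, and single arrays were high in both treatments, as on Female WSP Air 1-2 (6.77) and Male WSR EtOH 2-1 (6.59). Cdc37 kept within 5.78 to 6.24, the narrowest range of the members, and its interval for the averaged difference, -0.13 to 0.06, was also the narrowest.

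Of the 5 dim members, Hspb8, Cct6a, Tcp1 and Cct2 followed the spots next to them more closely than Cdc37 did. Cdc37 is printed in column 1 of its grid, with 15 clone spots within 3 columns and rows, against 32 to 44 for the others. Whether this lowered its correlation was not tested. Against the median of the clone spots within 3 columns and rows, over the 32 arrays, the Spearman correlation was 0.85 for Hspb8, 0.79 for Cct6a, 0.71 for Tcp1 and 0.67 for Cct2. It was 0.46 for Hspa4, 0.44 for Cdc37, 0.36 for Dnajb1 and 0.21 for Hspe1. These points share arrays, background correction and normalisation.
Over all pairs of clones the median correlation was 0.00, while the median of a clone with those within 2 columns and rows was 0.38. It was 0.26 for clones above background on every array and 0.43 for the other clones. With the same window, among the dim members, it was 0.73 for both Hspb8 and Cct6a, 0.52 for Tcp1, 0.49 for Cct2 and 0.39 for Cdc37. It was 0.38 for Hspa4, 0.21 for Hspe1 and 0.19 for Dnajb1.

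**Figure D3:**
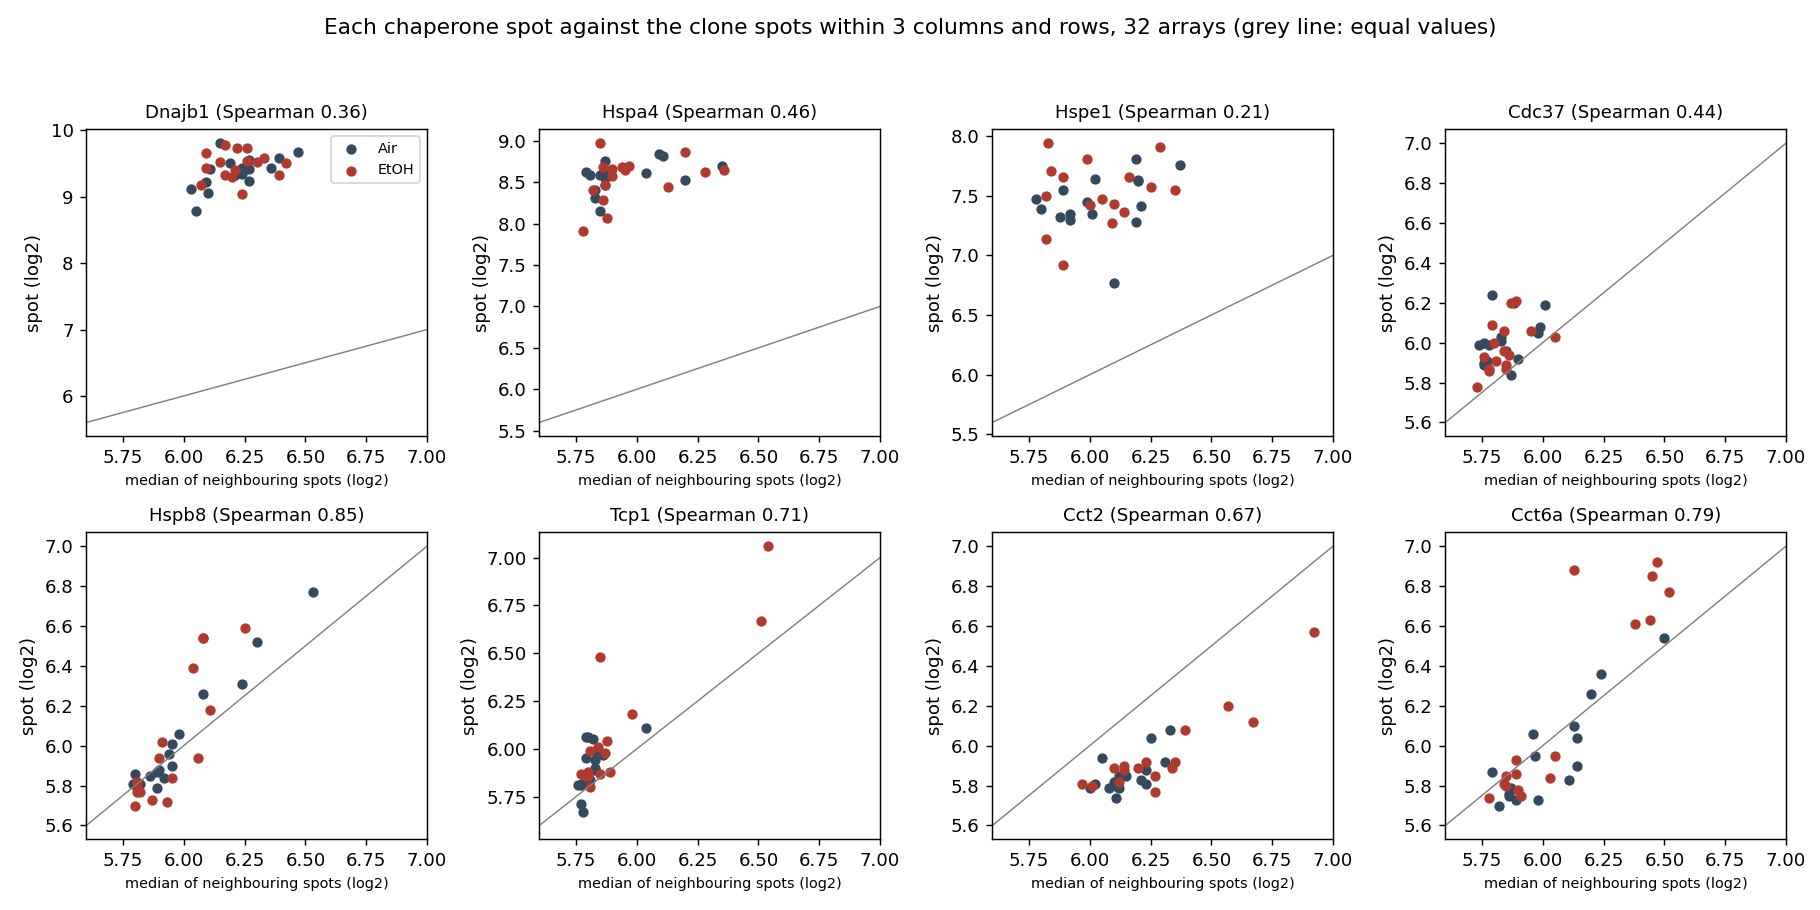
Log2 value of each member spot (y axis) against the median log2 of the clone spots within 3 grid columns and rows (x axis) on 32 arrays, air in blue and EtOH in red; the grey line marks equal values. Hspb8, Cct6a, Tcp1 and Cct2 follow their surroundings, Cct2 below the line on every array, whereas Dnajb1, Hspa4 and Hspe1 lie above it on every array.

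On 6 of the 7 arrays where Cct6a was high, the median of its surroundings was 6.38 to 6.52, and the spot exceeded it by 0.03 on Male WSR Air 2-2 and by 0.19 to 0.44 on the EtOH arrays. On Female WSP EtOH 2-1 the surroundings read 6.13, as on Male WSP Air 1-1 where Cct6a was not high (6.10), and the spot exceeded them by 0.75. Around Tcp1 the median was 6.54 on Male WSP EtOH 1-2 and 6.51 on Male WSR EtOH 1-1, but 5.85 on Female WSR EtOH 1-2. Cct2 lay below its surroundings on all 32 arrays, by 0.11 to 0.55. Dnajb1 lay above them by 2.75 to 3.66, Hspa4 by 2.13 to 3.13 and Hspe1 by 0.67 to 2.11. With the local median subtracted, the averaged ethanol difference was 0.17 for Cct6a (SE 0.07, unadjusted p = 0.0307, limma adjusted p = 0.768), 0.07 for Tcp1 and -0.04 for Cct2, and 0.10 for Dnajb1.

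Arrays of different groups also varied together. By the genomic DNA control spots, 192 on each array, 24 arrays fell into 9 sets of 2 or more, and 5 of the sets held both EtOH and air arrays. Deviations from the group mean correlated within sets at 0.92 for Cct6a, 0.90 for Hspb8, 0.71 for Tcp1, 0.66 for Cct2, 0.57 for Hspa4, 0.36 for Hspe1, 0.14 for Dnajb1 and -0.01 for Cdc37, with a median of 0.49 over all clones. In 1 set, Female WSR EtOH 2-1, Male WSP EtOH 2-1 and Male WSR Air 2-2 deviated by 0.44, 0.32 and 0.45 in Cct6a. In another, Male WSP EtOH 1-2 and Male WSR EtOH 1-1 deviated by 0.86 and 0.52 in Tcp1. With the set as a fixed term, the averaged ethanol difference was 0.19 for Cct6a and 0.12 for Tcp1 (limma, adjusted p = 0.911 and 0.922).

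**Figure D4:**
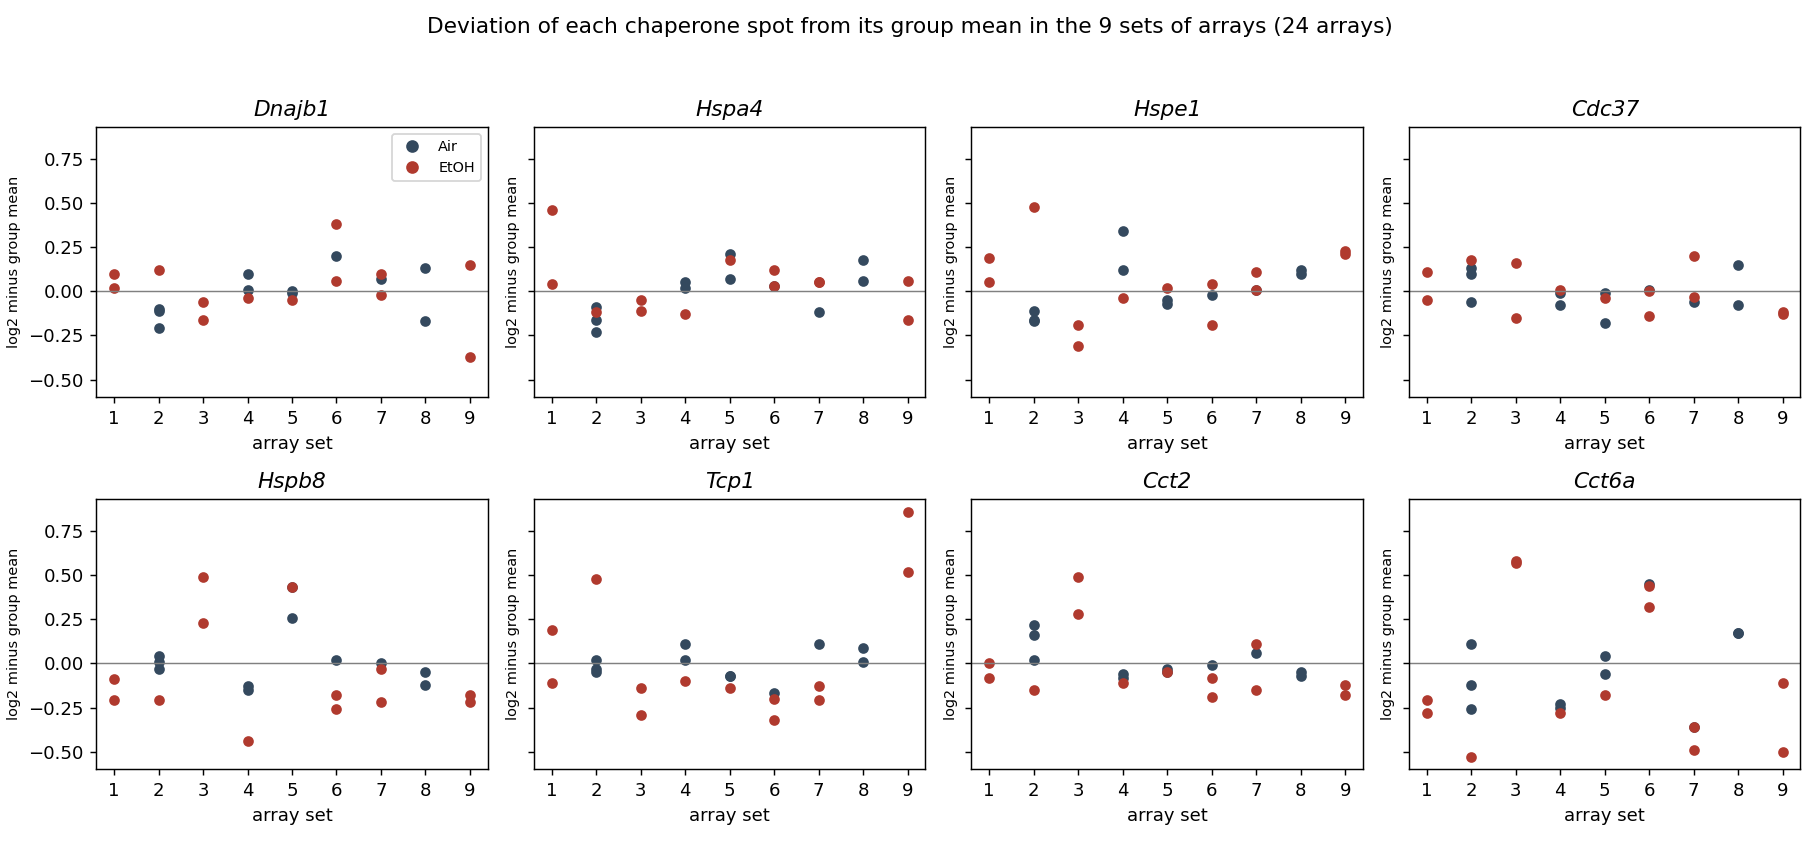
Deviation from the group mean on the log2 scale (y axis) of each member on the 24 arrays that fell into 9 sets by the genomic DNA control spots (x axis, set number), air in blue and EtOH in red. Arrays of a set lie close together in Cct6a and Hspb8, as in set 6 for Cct6a (0.44, 0.32 and 0.45), and are spread in Cdc37 and Dnajb1.

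Clones most like each member over the 32 arrays were sought among 695 titled clones above background on at least 16 arrays. For Cct6a it was the secretory leukocyte protease inhibitor (Spearman 0.88) and for Hspb8 calpain 6 (0.82), and each is printed 1 column away from the member. For Hspa4 it was inter-alpha trypsin inhibitor heavy chain 2 (0.69), printed 2 columns and 6 rows away. For Tcp1 it was the RAD50 homolog (0.63), printed 5 columns away in the same row. For Hspe1 it was the SNARE-interacting homolog titled vesicle transport through interaction with t-SNAREs 1b (0.69), and for Cdc37 the Bet3 homolog (0.55). For Dnajb1 it was cytokine receptor related protein 4 (0.75). Within groups the correlation was 0.36 for the Dnajb1 match and 0.50 or more for the other matches. Cct2 was above background on too few arrays to be matched.

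Other genes of protein quality control were read from lists made by title. Of 6 further chaperones and co-chaperones, 3 had the larger mean in EtOH, with a median of 0.01, and 0 passed. The averaged difference was 0.11 (SE 0.08) for Timm13, an intermembrane chaperone of mitochondria, and 0.05 (SE 0.03) for Fkbp1a, a prolyl isomerase. Vbp1, a prefoldin subunit that feeds the CCT ring, was at -0.03 (SE 0.07).
Of 4 tubulins, clients of that ring, 1 had the larger mean in EtOH and 0 passed, with -0.06 for Tuba8 (SE 0.08), -0.06 for tubulin alpha 2 (SE 0.04) and -0.05 for Tubb5 (SE 0.03). Of 13 proteasome and ubiquitin genes, 8 had the larger mean in EtOH, with a median of 0.02, and 0 passed. The proteasome subunit Psma1 was at 0.22 (SE 0.09, unadjusted p = 0.0203, limma adjusted p = 0.656), Psmd13 at 0.11 (SE 0.09) and UbcM8 at 0.10 (SE 0.04). Acat2, a thiolase whose spot is titled as a relative of Tcp1, was at 0.01 (SE 0.05).

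None of the 16 spots of cell type markers passed in the averaged comparison. Of 3 neuronal markers 2 had the larger mean in EtOH, with a median of 0.11: Thy1 and Syn1 were at 0.11 (SE 0.05 and 0.06) and Ina at 0.00 (SE 0.06), marginally lower in EtOH. All 3 astrocyte markers had the larger mean in EtOH, with a median of 0.02, among them Fgfr3 at 0.24 (SE 0.11) and Glul at 0.02 (SE 0.08). None of 3 microglial markers did, with a median of -0.02. Of 3 vascular markers 2 did, with a median of 0.12, and of 3 spots for blood and choroid plexus 1 did, with a median of -0.01. The remaining marker spot is not reported here.

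The members' calls are read against those over all 4696 clones. For ethanol on average, 0 members and 0% of clones passed, and at an unadjusted p under 0.05 there were 0 members and 7.52% of clones (limma in all of these). At that unadjusted level the ethanol effect had 0 members and 11.6% of clones in female WSP, 1 and 3.0% in female WSR, 0 and 6.15% in male WSP, and 0 and 3.39% in male WSR. It had 0 and 7.67% in WSP over both sexes, and 0 and 1.72% in WSR. The 1 member in female WSR was Dnajb1.
Between lines there were 1 member and 5.37% of clones in air, and 2 members and 4.94% of clones in EtOH, where Hspa4 joined Dnajb1. The sex difference in air had 1 member and 9.84% of clones, and it alone had clones past the adjusted threshold, 15 or 0.319%, of which 14 had the larger mean in males and none was a member. The difference between lines in the ethanol effect had 0 members and 2.09% of clones, and that between sexes 1 member and 6.13%. Whether a count of members differs from these shares was not tested.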

How the data were processed

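Each of the 32 arrays was hybridised with 33P-labelled cDNA from total RNA of 2 mice, 64 mice in all, per the labels' protocols. The deposited spot tables give an intensity per spot and a background value per array, and a spot was taken as above background where its intensity exceeded that value; which imager and spot software made them, and who made the arrays, is not given in the sources used here. The deposited value table holds the authors' log2 values: within each array they ranked exactly as the spot intensities (Spearman 1), so their scale and direction are known, while their centring between arrays is unknown, and 10.9% to 47.3% of values are blank, those not above background. Their medians, in the order 1-1, 1-2, 2-1 and 2-2, were 8.11, 8.25, 8.00 and 8.29 in female WSP air, 8.04, 7.88, 7.95 and 7.89 in female WSP EtOH, 7.86, 7.73, 8.19 and 8.03 in female WSR air, and 7.84, 7.52, 8.58 and 8.03 in female WSR EtOH. In males they were 7.70, 7.56, 7.72 and 7.55 in WSP air, 7.59, 8.01, 8.06 and 7.58 in WSP EtOH, 7.47, 7.49, 7.50 and 7.79 in WSR air, and 7.69, 7.39, 7.74 and 7.66 in WSR EtOH.

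The intensities were background corrected with normexp (offset 50), quantile normalised over 4696 clone spots and put on the log2 scale. Means of 8 groups were fitted in limma 3.58.1 under R 4.3.3 (lmFit, eBayes with trend, 24 residual and 5.60 prior degrees of freedom), for 12 comparisons, with Benjamini-Hochberg adjustment over all clones and a threshold of 0.05. The number of arrays limits the precision. Labels do not say whether pools shared litters or cages, so p-values cover the spread between pools. Each line was bred as 2 populations, and the p-values of line differences do not cover the spread between populations.

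Same-numbered selection replicates are the same bred population, per the labels. Deviations of same-numbered arrays from their group means correlated at -0.08, 0.21, -0.02 and 0.00 between EtOH and air in the 4 combinations of sex and line. Genes are named by spot title, and the genes described in full were the 8 members. Members, gene lists and comparisons were chosen with earlier results of these data known. Alternatives changed background correction, normalisation, the filter on dim spots, replicate block, selection replicate, array set and single arrays; the array set as a fixed term, robust regression and subtraction of neighbouring spots were chosen after seeing the data. The limma steps were tested on simulated data. Some genes of the lists are counted but not reported here by name.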

Additional observations from a re-analysis of the deposited data

Results flagged for a closer look

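There were 64 sets of 4 arrays, 8 for each member. Independent normal values would give about 1 in 20, or 3.20 sets, with an array far from the rest. Here 8 sets held an array far from the other 3. Tcp1 had 3 of them: Male WSP EtOH 1-2 at 7.06 against 5.87 to 5.98, Female WSR EtOH 1-2 at 6.48 against 5.80 to 5.87, and Female WSR Air 2-2, the lowest of its group, at 5.97 against 6.05 to 6.06. Cct6a was at 6.88 on Female WSP EtOH 2-1 against 5.74 to 5.85, and Cct2 at 6.57 on Female WSR EtOH 1-1 against 5.89 to 5.92. Hspb8 was at 6.54 on Male WSP EtOH 1-1 against 5.73 to 5.77. Cdc37 was at 6.09 on Female WSP EtOH 1-2 against 5.93 to 5.96, and Dnajb1 at 9.73 on Male WSR EtOH 1-1 against 9.52 to 9.54. Of these 8 values, 7 were from EtOH arrays. The share of EtOH arrays among such values over all clones is not given here, so the 7 cannot be read as an ethanol result. Spots near the floor, and arrays that varied together, need not behave as independent normal values, so 8 cannot be judged against 3.20. The median of the surrounding clones was 6.54 for Tcp1 on Male WSP EtOH 1-2, 6.13 for Cct6a on Female WSP EtOH 2-1 and 6.92 for Cct2 on Female WSR EtOH 1-1, and its part was not tested.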

How the results depend on the processing

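Of 96 member differences, 1176 recomputed values had 91 of opposite sign and 3 past the threshold, and 1664 with 1 array left out had 53 of opposite sign and 0 past it. On the authors' log2 values 1 member passed in the line difference in EtOH (Hspa4, -0.64) and 1 in the sex difference in air (Dnajb1, -0.55), and robust regression passed 1 in the latter (Dnajb1, -0.33). With selection replicate as a replicate block no member's call changed, and the averaged ethanol difference was 0.23 for Cct6a (limma, adjusted p = 0.713) and 0.17 for Tcp1 (adjusted p = 0.678). The sign of averaged ethanol differences turned for Hspa4 with median scaling (0.02), the authors' values (0.02) and within selection replicate 1 (0.08), for Hspb8 within selection replicate 1 (0.06), with set as a fixed term (0.01) and local centring (0.02), for Cct2 with local centring (-0.04), and within selection replicate 2 Cdc37 and Tcp1 were at 0.00. Among the other differences printed above (further sign changes are in the 91), it turned in the line difference in air for Hspa4 with local centring (0.02), in female WSP within selection replicate 1 for Cct6a (-0.02) and Hspa4 (0.18), in female WSR with local centring for Cct2 (-0.03), in male WSP for Dnajb1 within selection replicate 2 (0.15) and with local centring (0.02), and in male WSR for Cct6a with median scaling (0.02), loess (0.04), within selection replicate 1 (0.22) and local centring (0.13), and for Dnajb1 within selection replicate 1 (0.15), with the set as a random block (0.07) and as a fixed term (0.14). With single arrays left out, the averaged difference of Hspb8 ran from -0.06 to 0.03, Cct6a in female WSP from -0.01 to 0.37 and in male WSR from -0.24 to 0.10, and Dnajb1 in male WSP from -0.17 to 0.08 and in male WSR from -0.09 to 0.04. The cause of these shifts was not tested. The 15 clones past the threshold in the sex difference became 0 with median scaling, with loess and within either selection replicate. Their number was 2 with the set as a fixed term and 0 to 15 with single arrays left out. It was 138 with the authors' values, fitted to 2170 clones, 356 with robust regression, and 15 to 19 in the remaining settings. Where 0 clones had passed, robust regression passed 10 to 329 in the other 11 comparisons. The authors' values passed 46 in the line difference in EtOH, 11 in that in air and 22 for ethanol in female WSP. For ethanol in female WSP, loess passed 31, median scaling 17 and the set as a fixed term 14. Selection replicates 1 and 2 alone passed 17 and 32 there, and 0 to 18 passed with single arrays left out. The authors' values covered 3 members, and 5 members lay near background, where differences are understated.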
